A study of Homo sapiens with 30 samples.

Results

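The proteasome degrades proteins tagged with ubiquitin, and the RNA of its genes was followed here in OPM2 and Delta47 cells, both human myeloma lines, after the gene of the transcription factor FOXM1 was disrupted by genome editing and after FOXM1 was put back. The members were all rows of the deposited expression tables whose symbol begins with PSMA, PSMB, PSMC, PSMD, PSME, PSMF or PSMG and a number, with pseudogenes left out, and no measured value entered that choice. The rule gave 48 of 16407 genes in the OPM2 table and 49 of 17286 genes in the Delta47 table, with 48 symbols in both. PSMB11, the thymus-specific subunit, was listed in Delta47 alone, at 0 to 0.09. PSMC3IP, a meiotic recombination factor, was caught by its spelling, so it stands in the totals but under no proteasome role. A filter for genes with a value of at least 1 in at least 3 libraries left 47 members in OPM2 and 48 in Delta47. PSMB11 in Delta47 and the testis-specific alpha subunit PSMA8 in OPM2, listed at 0 to 0.03 FPKM, did not pass it and were not tested.

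Poly-A RNA was sequenced as paired ends in 30 samples, of which 27 were used, with 3 libraries in each group. The OPM2 groups were KO1R (FOXM1 knockout clone 1 given a lentiviral vector with the FOXM1c isoform), KO1EV (the same clone with the empty vector), the knockout clones KO2 and KO1, and WT, the unedited line. The Delta47 groups were KO2R (knockout clone 2 given the FOXM1c vector), KO2, KO1 and WT. The knockouts were made by electroporating Cas9 ribonucleoprotein directed at exon 2 of FOXM1, were grown from single cells by limiting dilution and were checked by Western blot and Sanger sequencing, and transduced cells were sorted for GFP. Each knockout group is therefore 1 clone, so that loss of FOXM1 and other differences of that clone cannot be told apart. Delta47 KO2R could be set only against untransduced KO2, so that the vector and FOXM1c cannot be told apart there. Nothing in the labels says that the 3 libraries of a group came from separate cultures, and the p-values then measure the spread between these libraries, which may be technical.

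The complete proteasome is a barrel-shaped 20S core closed by 19S caps. The alpha subunits (PSMA genes) form the outer rings and the gate of the core, and the beta subunits (PSMB genes) form the inner rings, where PSMB5, PSMB6 and PSMB7 hold the catalytic sites. In the cap, the PSMC ATPases unfold the substrate while the PSMD subunits bind ubiquitin, remove it and hold the cap together. In cells of the immune system the catalytic subunits are partly replaced by PSMB8, PSMB9 and PSMB10, which make the immunoproteasome, and the activator PA28, built from PSME1 and PSME2, opens the core without ubiquitin. Myeloma cells secrete large amounts of immunoglobulin and are treated with proteasome inhibitors, which act mainly on PSMB5. When proteasome activity falls short, the transcription factor NFE2L1 is released and raises the transcription of subunit genes.

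FOXM1 RNA itself was 263, 278 and 292 FPKM in OPM2 KO1R, 106, 105 and 109 in KO1EV, 57.1, 59.5 and 69.7 in KO2, 91.2, 93.3 and 91.7 in KO1 and 175, 176 and 177 in WT. In Delta47 it was 94.4, 102 and 101 in KO2R, 47.1, 46.1 and 45.4 in KO2, 46.1, 49.8 and 47.97 in KO1 and 87.1, 88.8 and 90.8 in WT, a value over the whole gene that also counts RNA outside the targeted exon. The OPM2 values are FPKM (fragments scaled to transcript length and library size), so levels of different genes are compared in OPM2 alone. The Delta47 table names no unit, so its numbers are called expression values and are compared only within a gene. Column totals were 510776 to 566016 in OPM2 and 534185 to 633778 in Delta47, and the read depth is unknown. Of the plasma cell markers, SDC1, TNFRSF17, CD38, PRDM1, IRF4, XBP1 and MZB1 were at 8.25 FPKM or more in every OPM2 library and CD27 was at 0 to 0.09. The B cell, T cell, myeloid, epithelial and stromal markers listed in OPM2 were at 1.02 FPKM or less. In Delta47 the epithelial markers EPCAM and KRT8 were listed at 1.87 to 5.72 and 0.94 to 1.54. These values have no stated unit and are not set against those of OPM2. Because whole cultures were lysed, fewer cells of a kind and less RNA per cell cannot be told apart. Replicate 3 of OPM2 KO2 and replicate 3 of OPM2 KO1EV stood apart from the other libraries of their groups, so the OPM2 counts below, and the values that move most, are given with and without them.

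Proteasome RNA was abundant in OPM2, and no library of the edited OPM2 cells summed to less than the lowest WT library. The 48 OPM2 members summed to 3895, 3809.6 and 3654 FPKM in KO1R, 3781, 3753 and 4174 in KO1EV, 3477, 3472 and 4738 in KO2, 3630.0, 3569 and 3718 in KO1 and 3483, 3428 and 3469 in WT. The third library stood above the other 2 in both KO2 and KO1EV. PSMB4, a structural beta subunit, was the highest member in FPKM, at 485, 504 and 463 FPKM in KO1R, 483, 467 and 503 in KO1EV, 409.8, 398 and 512 in KO2, 448, 464 and 480.3 in KO1 and 389, 413 and 431 in WT. PSMB1, another structural beta subunit, was at 195, 192 and 182 FPKM in KO1R, 188, 178 and 186 in KO1EV, 166, 163 and 220.2 in KO2, 162, 158 and 159 in KO1 and 158, 152 and 154 in WT. PSMB5, the drug-bound chymotrypsin-like subunit, was far lower at 43.7, 40.9 and 36.1 FPKM in KO1R, 47.4, 42.8 and 45.99 in KO1EV, 36.9, 34.6 and 55.9 in KO2, 40.2, 44.3 and 45.03 in KO1 and 38.98, 43.9 and 42.3 in WT. PSMB4 and PSMB5 enter the core in equal numbers, yet PSMB4 was several times higher in FPKM in every library. None of these 3 genes passed the test in any OPM2 comparison over all libraries. The ubiquitin receptor PSMD4 (218, 213 and 213 FPKM in WT) and the lid subunit PSMD7 (206, 193 and 195 FPKM in WT) followed PSMB4, while PSMB9 (4.20, 5.81 and 4.79) and PSMA5 (9.54, 9.88 and 10.1) were among the lowest.

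**Figure D1:**
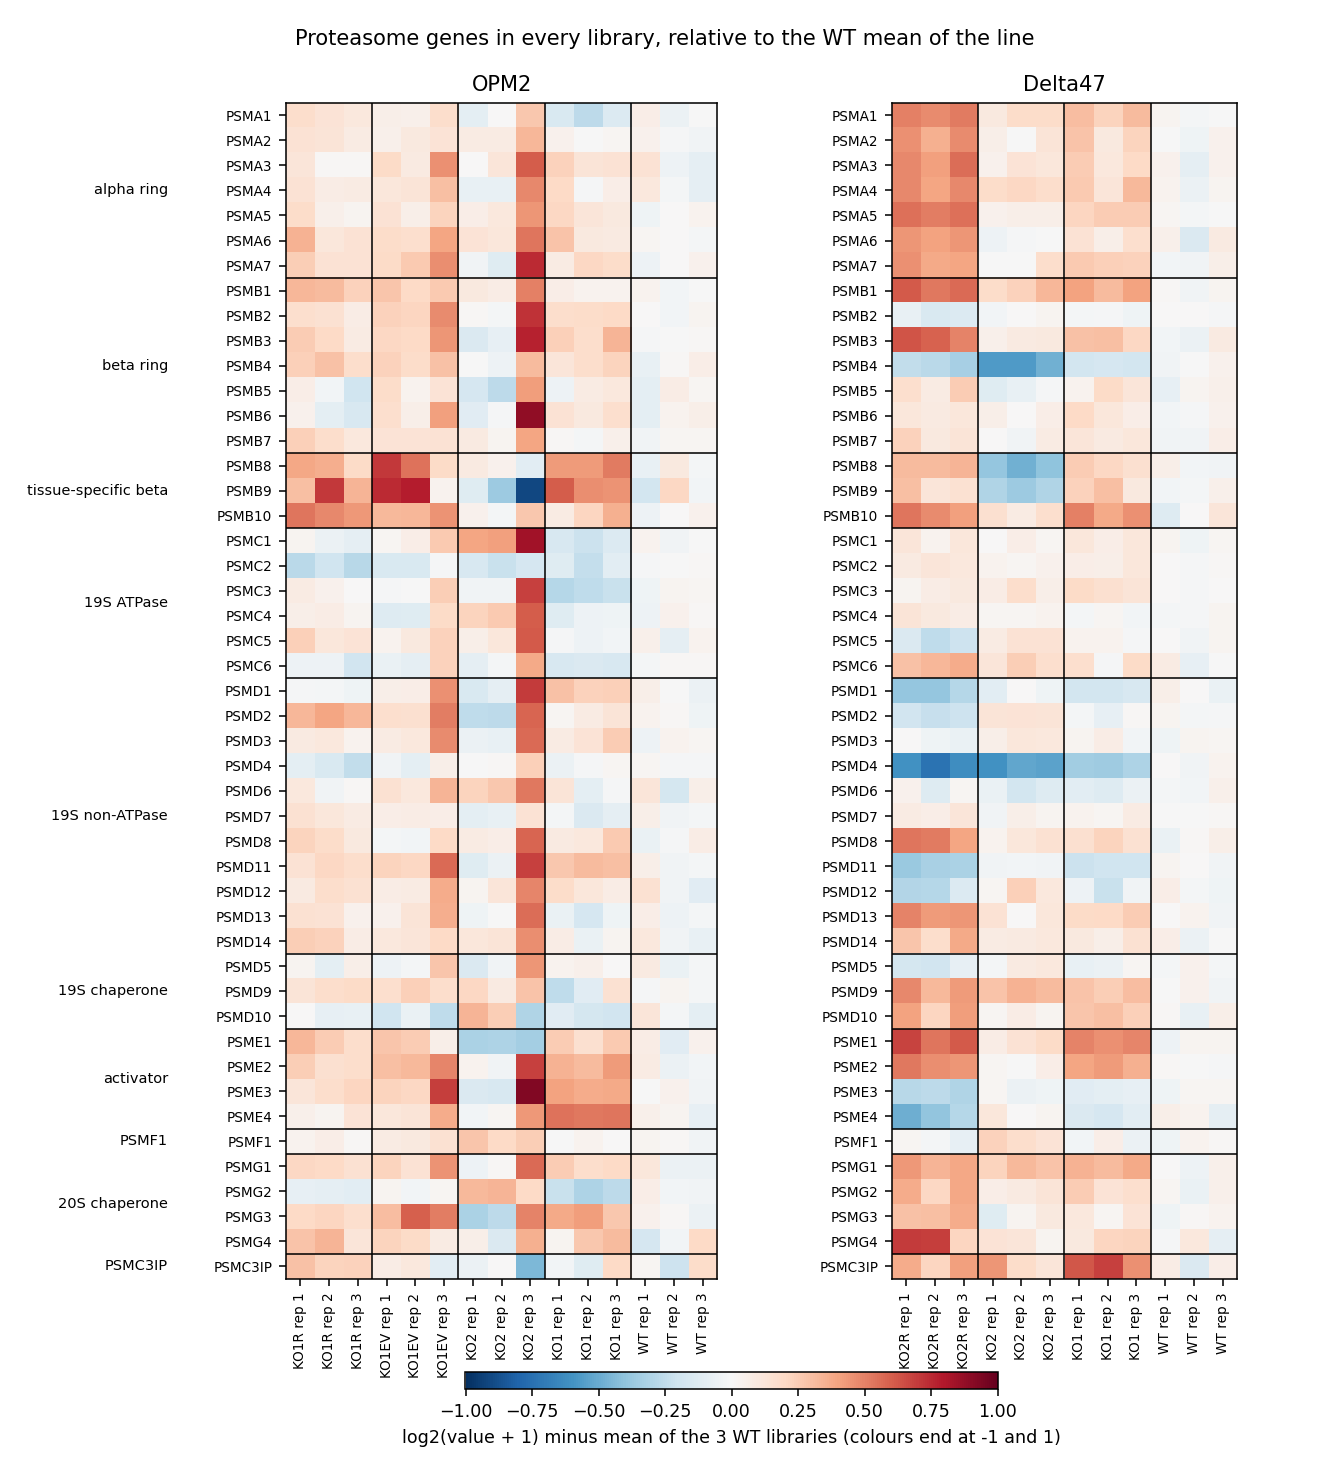
Each tested proteasome gene in each library, as log2(value + 1) minus the mean of the 3 WT libraries of the line, with OPM2 on the left and Delta47 on the right and genes grouped by role; PSMA8 is not drawn. Red is above the WT mean and blue below it, and a reader should see the red columns of OPM2 KO2 replicate 3 and KO1EV replicate 3, the red KO2R columns in Delta47, and the blue PSMB4 and PSMD4 rows of the Delta47 knockouts.

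In OPM2 KO2 replicate 3, the first of the 2 libraries that stood apart, most members and the chaperone gene HSPA8 were high. Of the immunoproteasome subunits PSMB9 was low, PSMB8 was lower by less and PSMB10 was higher. In KO2 replicate 3, 32 of the 47 tested members were at least 1.25-fold above the mean of replicates 1 and 2, against 29.7% of all genes, and 3 members were at least 1.25-fold below it, against 19.4% of all genes. The median log2 difference was 0.42 for members and 0.091 for all genes. These counts and medians used log2(FPKM + 1), whereas the folds that follow are ratios of FPKM. The excess reached 2.13-fold for PSME3, the nuclear PA28 subunit, 1.94-fold for PSMB6, the caspase-like catalytic subunit, 1.85-fold for PSMB3 and 1.81-fold for the cap subunit PSMD2. PSMB8 was at 0.88-fold, PSMB9 at 0.53-fold, PSMD10, a cap assembly chaperone, at 0.66-fold and PSMC3IP at 0.72-fold. Of genes outside the family, HSPA8, the constitutive HSP70 chaperone, was at 352, 349.7 and 1495 FPKM in the KO2 libraries. DDIT3, a target of the integrated stress response, was at 79.3, 81.1 and 7.04 FPKM there. NFE2L1 RNA was at 85.9, 83.5 and 30.2 FPKM in the same libraries. Release of the NFE2L1 protein was not measured, and its part in these differences was not tested.

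KO1EV replicate 3 differed from its group by less. On the log2(FPKM + 1) scale members passed the same fold no more often than other genes. Of 47 members, 5 were at least 1.25-fold above the mean of replicates 1 and 2, against 10.6% of all genes, and 2 were at least 1.25-fold below it, against 8.24% of all genes. The median log2 difference was 0.17 for members and 0.044 for all genes. The folds that follow are ratios of FPKM, by which PSMC6 (1.25) and PSMD5 (1.26) reached the fold as well. PSME3 was at 1.40-fold and PSMD1 at 1.32-fold, whereas PSMB9 was at 0.56-fold and PSMB8 at 0.73-fold. PSMB10 was at 1.09-fold. HSPA8 was at 767, 759.5 and 1416 FPKM and DDIT3 at 39.3, 38.2 and 9.45 FPKM in the KO1EV libraries. The same genes were 937, 811 and 841 and 17.4, 18.6 and 21.4 FPKM in the untransduced KO1 clone, and 455, 440.2 and 435 and 53.4, 50.3 and 54.3 FPKM in WT cells. KO1 as a whole therefore lay between WT and the 2 libraries in both genes. The part of culture conditions or RNA handling in these differences was not tested.

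**Figure D2:**
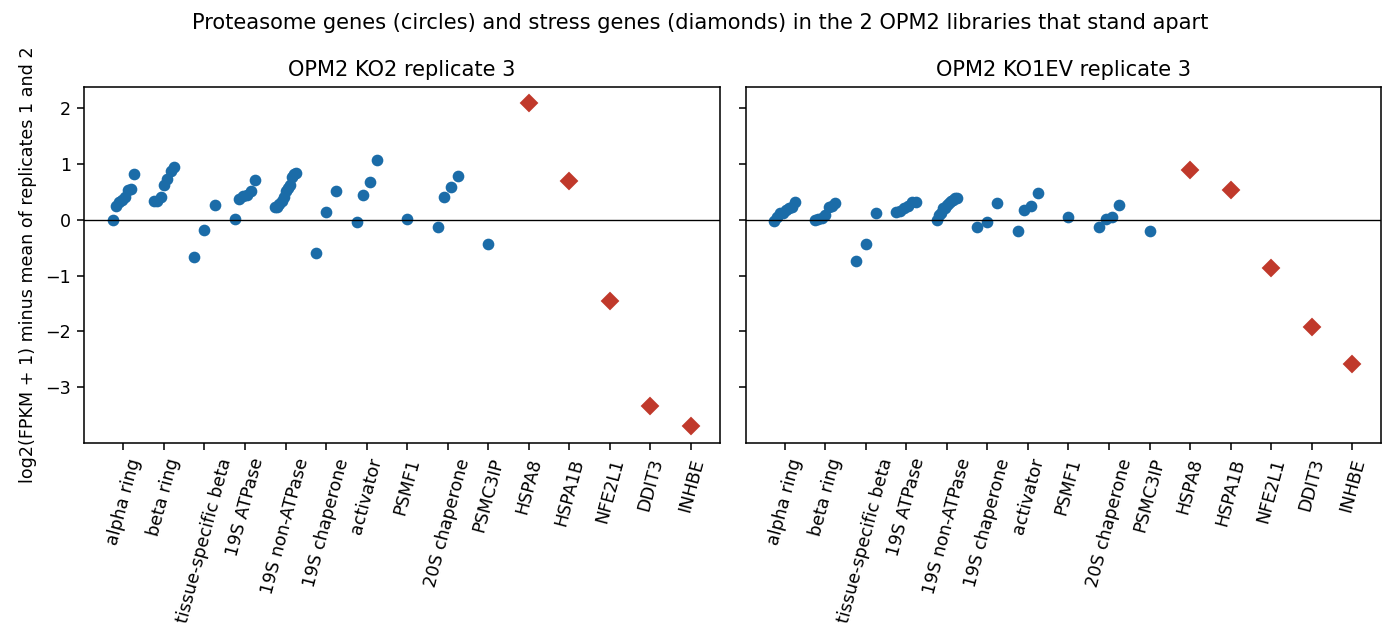
OPM2 KO2 replicate 3 (left) and KO1EV replicate 3 (right), each as log2(FPKM + 1) minus the mean of replicates 1 and 2 of its group. Circles are the proteasome genes by role and diamonds are HSPA8, HSPA1B, NFE2L1, DDIT3 and INHBE. Most circles lie above 0 while NFE2L1, DDIT3 and INHBE lie below it. In the tissue-specific beta subunits PSMB9 and PSMB8 lie below 0 and PSMB10 above it.

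In OPM2 KO1 against WT, the immunoproteasome subunit PSMB8 and the activators PSME1 and PSME4 rose and the core assembly chaperone PSMG2 fell. These were the 4 members called, 3 higher and 1 lower of 47 tested, at a Benjamini-Hochberg adjusted p below 0.05 in limma over all genes, when 21.2% of all genes were called, 14.5% higher and 6.72% lower. The share of members called, at 4 of 47, was below that background. PSMB8 was at 44.2, 44.3 and 47.2 FPKM in KO1 and 30.9, 34.96 and 32.1 FPKM in WT, and the groups did not overlap. The log2 change of PSMB8 was 0.46 ± 0.11 (SE; limma, adjusted p = 0.0114, n = 3 each). PSME4, the nuclear activator PA200, was at 14.7, 14.5 and 14.6 FPKM in KO1 and 10.2, 9.95 and 9.17 FPKM in WT, a log2 change of 0.53 ± 0.11 (limma, adjusted p = 0.00408). PSME1 was at 83.5, 77.8 and 83.7 FPKM in KO1 and 73.4, 64.3 and 71.8 FPKM in WT (log2 change 0.22 ± 0.074, limma, adjusted p = 0.0451), a call that ended without any 1 of the 6 libraries and, at an adjusted p of 0.0921, once the trend with transcript length was removed. PSMG2, which with PSMG1 starts the alpha ring, was at 59.4, 56.05 and 57.8 FPKM in KO1 and 72.8, 68.1 and 67.7 FPKM in WT (log2 change -0.26 ± 0.056, limma, adjusted p = 0.0058). PSMG2 lies on chromosome 18, where 14 of its 20 nearest tested genes were below 0 in this comparison with a median of -0.12, and the median over chromosome 18 was -0.11.

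Without the 2 libraries that stood apart, which are in neither KO1 nor WT but share the estimate of spread, 27 members were called in KO1 against WT, 20 higher and 7 lower, when 58.9% of all genes were called, 38.0% higher and 20.9% lower. Quantile scaling with all libraries kept gave 2 higher and 2 lower. By role in the fit without the 2 libraries, all 3 immunoproteasome subunits were higher. PSMB9 had a log2 change of 0.51 (limma, adjusted p = 0.00106) and PSMB10 of 0.22 (0.00401). All 4 activators were higher, with 0.36 for PSME2 and 0.38 for PSME3. Of the 6 ATPases 4 were lower and none higher, from -0.25 for PSMC3 to -0.16 for PSMC2. Of the 11 other cap subunits 4 were higher, PSMD1, PSMD3, PSMD8 and the lid subunit PSMD11, the last by 0.30. Among the alpha subunits 4 of 7 were higher and PSMA1 was lower, and among the constitutive beta subunits PSMB2, PSMB3 and PSMB4 of 7 were higher. With the length trend removed as well, PSMA3, PSMA5, PSMA6, PSMD3 and PSMD8 were no longer called and PSMC4, PSMD7 and PSMD13 were called lower, so that 1 alpha subunit was higher and 1 lower, and 2 of the other cap subunits were higher and 2 lower. The median log2 change of members was 0.084 and that of all genes 0.075. PSMA1 lies on chromosome 11, where 19 of its 20 nearest tested genes were below 0 with all libraries, with a median of -0.20.

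In genes around the proteasome, OPM2 KO1 had higher RNA of the ubiquitin gene UBB (303 FPKM in KO1 cells and 234 FPKM in WT cells; log2 change 0.37, limma, adjusted p = 0.0123), a gene whose reads can be shared with near-identical sequence. Among partners of the immunoproteasome 3 of 5 tested rose and none fell, namely the peptide transporter subunit TAP2 (0.28) and the inducers of antigen presentation genes IRF1 (0.41) and NLRC5 (0.38). TXNL1, a cap-associated thioredoxin on chromosome 18, fell by 0.34, and the small MAF protein MAFG, a partner of NFE2L1, rose by 0.40. The ubiquitin-activating enzyme UBA1 rose by 0.36. Of 13 other proteasome parts 2 rose and 1 fell, of 13 genes of ubiquitin supply and delivery 4 rose and none fell, and of 9 genes of proteasome gene activation MAFG was the one called. Over all genes 14.5% were called higher and 6.72% lower. The counts without the 2 libraries, when 38.0% of all genes were called higher and 20.9% lower, were 4 higher and 2 lower of 13 other parts, 9 and 2 of 13 ubiquitin genes, 5 and 4 of 9 activation genes and 3 and 0 of 5 partners. With the length trend removed and all libraries, 2 ubiquitin genes were higher and 1, UFD1, lower, and TAP2 was no longer called. NFE2L1 was at 53.6 ± 3.17 FPKM in KO1 cells and 82.3 ± 1.00 FPKM in WT cells (SD, n = 3 each; limma, adjusted p = 0.174), a difference called lower without the 2 libraries (1.66e-08). The core maturation factor POMP, with a log2 change of 0.064, and the heat shock factor HSF1, with 0.19, were not called, and HSF1 was called higher without the 2 libraries.

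In OPM2 KO2 against WT, the ATPases PSMC1 and PSMC4, the lid subunit PSMD6, the inhibitor PSMF1 and the chaperone PSMG2 rose, and PSME1 fell. These were 6 of 47 members, 5 higher and 1 lower, against 14.4% of all genes, 6.54% higher and 7.82% lower. PSMC1, the ATPase whose tail helps to open the gate of the core, was at 93.4, 94.5 and 128 FPKM in KO2 and 72.9, 69.4 and 70.6 FPKM in WT, with all KO2 libraries above all WT libraries. Its log2 change was 0.55 ± 0.10 (limma, adjusted p = 0.00301) and 0.40 ± 0.043 without the 2 libraries. PSMC1 lies on chromosome 14, where 16 of its 20 nearest tested genes were above 0 with a median of 0.23. PSMG2 was at 87.04, 88.1 and 79.8 FPKM in KO2 and 72.8, 68.1 and 67.7 FPKM in WT, a log2 change of 0.28 ± 0.056 (limma, adjusted p = 0.00401), and 16 of its 20 neighbours were above 0 with a median of 0.11. PSME1 was at 55.9, 55.99 and 54.8 FPKM in KO2 and 73.4, 64.3 and 71.8 FPKM in WT, a log2 change of -0.32 ± 0.074 (limma, adjusted p = 0.00966), and its 19 neighbours on chromosome 14 had a median of 0.042. PSMF1, an inhibitor of the core, was at 18.2, 17.2 and 17.8 FPKM in KO2 and 15.1, 15 and 14.4 FPKM in WT, without overlap.

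PSMC4 was at 87.5, 90.1 and 115 FPKM in KO2 and 72.3, 77.2 and 75.4 FPKM in WT (log2 change 0.36 ± 0.10, limma, adjusted p = 0.0293), and its call ended without any 1 of the WT libraries. PSMD6 was at 36.4, 37.6 and 45.1 FPKM in KO2 and 33.7, 27.4 and 32.2 FPKM in WT, and its call ended in 4 of the 6 fits that left out 1 library, among them those without KO2 replicate 3 and without WT replicate 2. None of the 6 was called when the fit held only the KO2 and WT libraries, where 7 members had an unadjusted p below 0.05, against 17.5% of all genes. Without the 2 libraries all 6 stayed called and 7 further members joined them, in all 6 higher and 7 lower against 41.1% of all genes, 19.2% higher and 21.9% lower. Those added were PSMD10 with 0.29 and, on the lower side, PSMB5 (-0.21), PSMC2 (-0.19), PSMD1 (-0.12), PSMD2 (-0.26), PSME3 (-0.16) and the alpha ring chaperone PSMG3 (-0.29). All 20 neighbours of PSMC2 on chromosome 7 were below 0 with all libraries, with a median of -0.35. The median log2 change of members was 0.17 against 0.021 over all genes with all libraries, and -0.020 against -0.016 without the 2.

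Around the proteasome in OPM2 KO2, 5 of 13 other parts and associated factors rose and none fell. Over all genes 6.54% were called higher and 7.82% lower. POMP was at 78.4 ± 11.2 FPKM in KO2 cells and 61.5 ± 1.44 FPKM in WT cells (log2 change 0.34, limma, adjusted p = 0.0161; 0.22 without the 2 libraries), and the deubiquitinase USP14 (0.36), the cap factor PAAF1 (0.30), TXNL1 (0.26) and ZFAND2A (0.52) rose as well. UBB fell to 129.7 FPKM in KO2, against 234 FPKM in WT (log2 change -0.85, limma, adjusted p = 3.46e-05). TAP2 fell by 0.35, as 1 of 5 immunoproteasome partners. Of 13 ubiquitin genes 2 rose and 1 fell, and none of 9 activation genes was called, with log2 changes of -0.44 for NFE2L1 and 0.11 for HSF1 and an adjusted p of 0.395 and 0.463. The value of NFE2L1 rested on KO2 replicate 3, and without the 2 libraries the log2 changes were 0.041 for NFE2L1 and 0.019 for HSF1, neither called. Without them 1 activation gene was higher, SYVN1, and 2 were lower, NGLY1 and NFE2L3, of the ubiquitin genes 3 were higher and 4 lower, of the other parts 5 higher and 1 lower, and of the partners TAP2 and IRF1 lower. Over all genes 19.2% were then called higher and 21.9% lower.

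Set against each other, the OPM2 clones differed in 12 of 47 members, 8 higher and 4 lower in KO2 than in KO1, against 29.9% of all genes, 10.8% higher and 19.1% lower. KO2 had less of 2 of the 3 immunoproteasome subunits, PSMB8 and PSMB9, and of 2 of the 4 activators, PSME1 and PSME4, and more of 3 of the 6 ATPases, PSMC1, PSMC3 and PSMC4. PSMB10 (-0.12) was not called. PSMB9, the immunoproteasome subunit that replaces PSMB6, was at 4.42, 3.59 and 2.14 FPKM in KO2 and 7.99, 7.12 and 7.07 FPKM in KO1, a log2 change of -0.97 ± 0.22 (limma, adjusted p = 0.00434) and -0.75 ± 0.12 without the 2 libraries. PSMB8, which replaces PSMB5, was at 34.7, 33.6 and 30.2 FPKM in KO2 and 44.2, 44.3 and 47.2 FPKM in KO1 (log2 change -0.45 ± 0.11, limma, adjusted p = 0.00802). PSME1 was lower by 0.55 and PSME4 by 0.39 on the log2 scale. PSMC1 was higher by 0.72 ± 0.10 (limma, adjusted p = 0.000188), and 19 of its 20 neighbours were above 0, 13 of them called higher. PSMC3, another ATPase, was at 101, 102 and 167 FPKM in KO2 and 84.8, 87.1 and 88.7 FPKM in KO1, higher by 0.46 with all libraries and by 0.22 without the 2. PSMG2 was higher by 0.55 ± 0.056 (limma, adjusted p = 1.03e-05), and of the genes of chromosome 18 44.4% were called higher with a median of 0.24. The calls of PSMA1, PSMC3, PSMD6, PSMD9 and PSME4 ended in at least 2 of the 6 fits that left out 1 library. When the fit held only the KO2 and KO1 libraries, 5 of the 12 calls were left, PSMC1 and PSMG2 higher and PSMB8, PSMB9 and PSME1 lower.

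Without the 2 libraries the difference between the OPM2 clones took in 31 members, 10 higher and 21 lower in KO2, against 67.7% of all genes, 24.9% higher and 42.7% lower. All 3 immunoproteasome subunits, all 4 activators and 5 of 7 constitutive beta subunits were then lower, 4 of 6 ATPases were higher and none lower, and 3 of 4 core chaperones were lower with PSMG2 higher. PSMG3 had a log2 change of -0.65 and was at 8.03, 8.38 and 14.8 FPKM in KO2 and 13.6, 14.1 and 12.6 FPKM in KO1, where KO2 replicates 1 and 2 lay below and KO2 replicate 3 above all KO1 libraries. PSME3 had -0.54 and PSME2 -0.37. Over all libraries TAP1 (-0.30), TAP2 (-0.64) and IRF1 (-0.63) were lower in KO2 as well, 3 of 5 partners, and of the other proteasome parts 5 of 13 were higher and 1 lower, with 0.27 for POMP. TAP1 without the 2 libraries had -0.18 and POMP 0.16, both still called. The ubiquitin list had 1 of 13 higher, UFD1 by 1.01, and 4 lower, UBB by 1.23. Over all genes and libraries 10.8% were called higher and 19.1% lower. TXNL1 was higher by 0.60, and of 9 activation genes 2 were lower, with MAFG at -0.50, while NFE2L1 (0.17) and HSF1 (-0.084) were not called. NFE2L1 without the 2 libraries was higher by 0.65 (limma, adjusted p = 1.29e-08) and HSF1 lower by 0.17 (0.0312). The counts were then 2 higher and 5 lower of 9 activation genes, 2 and 8 of 13 ubiquitin genes, 6 and 3 of 13 other parts, and 0 and 4 of 5 partners.

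The empty vector and the FOXM1c vector moved few proteasome genes in OPM2. In KO1EV against KO1, 1 of 47 members was called, against 4.95% of all genes, 1.78% higher and 3.17% lower, namely PSMG2 at 70.7, 68.2 and 70.5 FPKM in KO1EV and 59.4, 56.05 and 57.8 FPKM in KO1, which did not overlap. Its log2 change was 0.27 ± 0.056 (limma, adjusted p = 0.0126), and 0.086 was the adjusted p with the length trend removed, where 9 members had an unadjusted p below 0.05, against 17.2% of all genes. The call also ended without KO1 replicate 2, without KO1 replicate 3 and without KO1EV replicate 1. TXNL1 rose by 0.31, and no other gene of the 4 pathway lists was called. Without the 2 libraries 2 ubiquitin genes were higher and 7 lower of 13, 2 activation genes higher and 1 lower of 9, 2 other parts higher and 1 lower of 13, and 1 of 5 partners lower. In that fit 13 members were called, 9 higher and 4 lower, against 32.1% of all genes, 12.6% higher and 19.5% lower, among them PSME4 with -0.41 and PSMA1 with 0.24. Of the 20 neighbours of PSMA1, 19 were above 0 with all libraries, with a median of 0.24. In KO1R against KO1EV, where FOXM1 RNA was higher, none of the 47 members was called in limma and 1 had an unadjusted p below 0.05, against 23.1% of all genes, when 8.23% of all genes were called, 3.1% higher and 5.12% lower. PSMB8 was at 42.8, 42.1 and 37.3 FPKM in KO1R and 53.8, 48.05 and 37.3 FPKM in KO1EV, ranges that overlap through KO1EV replicate 3, and PSMB10 was at 88.04, 84.5 and 81.7 FPKM in KO1R and 75.98, 76.2 and 82.8 FPKM in KO1EV. Without the 2 libraries 6 members were called, against 26.4% of all genes, 9.28% higher and 17.2% lower, namely PSMB6 (-0.19), PSMB8 (-0.32) and PSMG3 (-0.26) on the lower side and PSMC4 (0.18), PSMD2 (0.19) and PSMD8 (0.19) on the higher. PSMB6 and PSMG3 were no longer called with the length trend removed as well, and PSMB10 and PSMC5 were called higher. Of the pathway lists only NPLOC4, a cofactor of the segregase VCP, was called, with -0.31 (limma, adjusted p = 0.0489), when all libraries were used. Without the 2 libraries 4 of 13 ubiquitin genes were lower and 2 of 9 activation genes, NFE2L2 and NFE2L1, higher. POMP (0.065 in KO1EV against KO1 and -0.033 in KO1R against KO1EV), NFE2L1 (0.055 and 0.56) and HSF1 (0.030 and -0.094) were not called in either with all libraries. Both values of NFE2L1 rested on KO1EV replicate 3, the lowest of the KO1EV libraries at 69.9, 66.4 and 37.1 FPKM. NFE2L1 without the 2 libraries had 0.34 (limma, adjusted p = 0.000118) in KO1EV against KO1 and 0.27 (0.000706) in KO1R against KO1EV, both called.

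The other groups of the OPM2 members that ranged most fill in the picture. PSMB9 was at 6.28, 8.65 and 6.45 FPKM in KO1R and 8.87, 9.15 and 5.03 in KO1EV, where the third KO1EV library was the lowest of the 6. PSMB10 was at 62.1, 59.6 and 73.05 FPKM in KO2, 63.9, 70.1 and 77.6 in KO1 and 58.2, 60.6 and 62.4 in WT, with KO1 reaching highest. Of the activators, PSME1 was at 87.8, 83.1 and 78.8 FPKM in KO1R and 84.6, 83.1 and 72.5 in KO1EV. PSME2 was at 61.8, 58.2 and 58.8 FPKM in KO1R, 64.2, 65.5 and 73.2 in KO1EV, 53.1, 50.8 and 84.01 in KO2, 66.6, 65.1 and 70.1 in KO1 and 55.2, 49.9 and 51.01 in WT, and the highest of all its libraries was KO2 replicate 3. PSME4 was at 10.1, 9.95 and 10.8 FPKM in KO1R, 10.7, 10.7 and 12.9 in KO1EV and 9.54, 9.93 and 13.6 in KO2, all below the KO1 libraries. Of the ATPases, PSMC1 was at 72.1, 68.2 and 66.7 FPKM in KO1R, 72.1, 74.4 and 85.3 in KO1EV and 63.3, 61 and 64.4 in KO1. PSMC3 was at 110.0, 107 and 104 FPKM in KO1R, 103, 103 and 123 in KO1EV and 101, 106 and 105 in WT. PSMC4 was at 77.9, 78.7 and 76.5 FPKM in KO1R, 68.4, 68.7 and 85.6 in KO1EV and 68.8, 72.2 and 72.8 in KO1, and in all 3 ATPases KO2 replicate 3 was the highest OPM2 library. PSMG2 was at 65.4, 65.3 and 64.6 FPKM in KO1R, above the KO1 libraries, and PSMG3 at 11.9, 12.04 and 11.6 FPKM in KO1R, 12.97, 16.1 and 15.1 in KO1EV and 10.6, 10.3 and 9.83 in WT.

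In Delta47 the alpha ring, the immunoproteasome and PA28 were higher in KO1 than in WT. More members were called than in OPM2 with all libraries, where 21.2% of all genes were called in KO1 and 14.4% in KO2. Without the 2 OPM2 libraries that stood apart, 27 OPM2 members were called in KO1 against WT and 13 in KO2. In Delta47 KO1 against WT 33 of 48 members were called, 27 higher, PSMA8 and PSMC3IP among them, and 6 lower. The share over all genes was 52.6%, 28.9% higher and 23.7% lower. In KO2 against WT 18 were called, 13 higher and 5 lower, against 43.6% of all genes, 28.4% higher and 15.2% lower. Both comparisons share the WT libraries. The median log2 change of members was 0.13 in KO1, against 0.023 over all genes, and 0.056 in KO2, against 0.053. With the length trend described below removed, the median of members was 0.014 in KO1, and of the named groups PSMA1 and PSMA5 of the 7 somatic alpha subunits, PSMB10 of the 3 immunoproteasome subunits, and both PSME1 and PSME2 of PA28 were still called higher. In KO1 all 7 somatic alpha subunits rose, from 0.13 for PSMA6 to 0.28 for PSMA1, and in KO2 PSMA1 (0.16) and PSMA4 (0.19) rose. PSMB1 was at 216, 224 and 241 in KO2, 251, 238 and 252 in KO1 and 192, 186 and 194 in WT, so that neither clone overlapped WT. Its log2 change was 0.37 ± 0.041 in KO1 (limma, adjusted p = 1.34e-06) and 0.25 ± 0.041 in KO2 (0.000113). PSMB3 was at 328, 330.2 and 308 in KO1 and 262, 257 and 284 in WT, higher by 0.27. PSMA5 was at 45.7, 47.1 and 47.04 in KO1 and 39.9, 38.9 and 39.2 in WT. PSMB5, the catalytic subunit that drugs bind, was at 48.7, 50.6 and 52.7 in KO2, 54.4, 60.9 and 57.98 in KO1 and 50.2, 54.3 and 55.3 in WT, and was called in neither (limma, adjusted p = 0.0783 in KO1 and 0.305 in KO2).

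PSMB4 and PSMD4, the most abundant members in OPM2, went the other way in Delta47. PSMB4 was at 541, 542 and 575 in KO2, 707, 716 and 709 in KO1 and 783, 799.8 and 829 in WT, so that the 3 groups did not overlap. It fell by 0.54 on the log2 scale in KO2 (SE 0.035; limma, adjusted p = 2.76e-09) and by 0.18 in KO1 (0.000508). PSMD4, the cap's ubiquitin receptor, was at 279, 296 and 293 in KO2, 334, 332 and 344 in KO1 and 426, 415 and 435 in WT. Its log2 changes were -0.55 ± 0.038 in KO2 (limma, adjusted p = 5.88e-09) and -0.34 ± 0.038 in KO1 (2.05e-06). These genes are neighbours on chromosome 1, with 3 tested genes between them, ZNF687, PI4KB and RFX5, and the change extended to those around them. Of the 19 nearest tested genes of PSMB4, 16 were called lower in KO2 and 14 in KO1, with medians of -0.45 and -0.33, and of those of PSMD4 15 and 13, with medians of -0.48 and -0.29. Over all 1130 other genes of chromosome 1 the medians were -0.0033 in KO2 and -0.065 in KO1. In OPM2, 15 of the 19 neighbours of PSMB4 were above 0 in KO1. Copy number was not measured, and its part was not tested.

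In the 19S cap and its chaperones the Delta47 changes other than that of PSMD4 were mixed in direction. Among the ATPases PSMC1 (0.10), PSMC2 (0.080) and PSMC3 (0.16) rose in KO1, and PSMC3 (0.10), PSMC5 (0.12) and PSMC6 (0.18) in KO2. Of 11 non-ATPase subunits PSMD8 and PSMD13 rose in KO1 and PSMD1, PSMD4 and PSMD11 fell, while in KO2 PSMD2 and PSMD3 rose and PSMD4 and PSMD6 fell. With the length trend removed, none of these KO2 rises was called, PSMD1 and PSMD11 were called lower there, and in KO1 PSMC2, PSMC3 and PSMD8 were no longer called while PSMC4, PSMC5 and PSMD6 were called lower. The cap chaperone PSMD9 rose in both clones, by 0.32 in KO2 and 0.28 in KO1, as did the core chaperone PSMG1, by 0.28 and 0.35. The 20 neighbours of PSMD9 had medians of 0.15 in KO2 and -0.019 in KO1, and those of PSMG1 0.052 and 0.19. On chromosome 21, which holds PSMG1, 30.2% of other genes were called higher in KO2 and 56.6% in KO1. PSMG4, another core chaperone, was at 26.8, 29 and 29.1 in KO1 and 24.6, 26.9 and 23.3 in WT. PSMD10 (0.27) and PSMG2 (0.19) rose in KO1, calls that ended with the trend removed, and PSMF1 (0.18) rose in KO2. PSMC3IP was at 14.1, 12.6 and 14.5 in KO2R, 14.96, 12.3 and 11.8 in KO2, 17.1, 17.8 and 15.1 in KO1 and 11.3, 9.63 and 11.3 in WT. Among the 33 calls in KO1, those of PSMA6, PSMB6, PSMB7, PSMC1, PSMC2, PSME3 and PSME4 ended in 1 to 5 of the 6 fits that left out 1 library, and among the 18 in KO2, those of PSMC3, PSMC6, PSMD3, PSMD6, PSME1 and PSMC3IP in 2 to 5.

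PSMA8, the alpha subunit of the testis, was listed at 4.38, 4.10 and 4.49 in the Delta47 KO1 libraries, at 0.03 in 1 KO2 library and at 0 in all other Delta47 libraries. It passed the filter through KO1 alone, so its difference lends no support to a change of the family. PSMA8 lies on chromosome 18, whose tested genes had a median of 0.20 in KO1 against WT, 55.9% of them called higher, while its own 20 neighbours had a median of 0.061.

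The immunoproteasome and PA28 set the Delta47 clones apart from each other. PSMB8 was at 41.2, 38.6 and 40.7 in KO2, 64.7, 62.9 and 60.8 in KO1 and 56.5, 53.3 and 52.9 in WT. PSMB8 thus lay below WT in every KO2 library and above it in every KO1 library, with log2 changes of -0.42 ± 0.039 in KO2 (limma, adjusted p = 1.76e-07) and 0.21 ± 0.039 in KO1 (0.000295). PSMB9 was at 34.2, 32.8 and 34.3 in KO2, 50.1, 52.5 and 45.4 in KO1 and 41.6, 41.9 and 43.9 in WT, with log2 changes of -0.32 ± 0.054 in KO2 (0.000144) and 0.21 ± 0.054 in KO1 (0.00389). Both were still called lower in KO2 with the length trend removed, while in KO1 PSMB8 had 0.058 (limma, adjusted p = 0.268) and PSMB9 0.025 (0.679). PSMB10, which replaces PSMB7, was at 58.4, 55.2 and 58.7 in KO2, 74.5, 68 and 71.9 in KO1 and 47.7, 52.3 and 56.8 in WT, and it was called in KO1 (0.45 ± 0.055, limma, adjusted p = 4.99e-06) but not in KO2 (0.14 ± 0.055, 0.0551). PSME1 was at 100.1, 105 and 109 in KO2, 135, 131 and 134 in KO1 and 91.9, 96.8 and 96.9 in WT, and rose in both, though in KO2 not with the length trend removed (limma, adjusted p = 0.096). PSME2 was at 115, 113 and 119 in KO2, 149, 153 and 146 in KO1 and 114, 113 and 113 in WT, and rose in KO1 by 0.39 ± 0.034 (limma, adjusted p = 8.52e-08). PSME1 and PSME2 are close together on chromosome 14, where 17 of the 19 neighbours of PSME1 were above 0 in KO1 with a median of 0.24. The neighbours of PSMB8 and PSMB9 on chromosome 6 had medians of 0.031 in KO2 and 0.041 in KO1. The nuclear activators PSME3 (-0.10) and PSME4 (-0.14) fell in KO1, PSME4 not with the length trend removed.

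Tested directly, the Delta47 clones differed in 26 of 48 members, 7 higher and 19 lower in KO2 than in KO1, against 42.1% of all genes, 24.9% higher and 17.2% lower. All 3 immunoproteasome subunits were lower in KO2, PSMB8 by 0.63 (limma, adjusted p = 4.33e-09), PSMB9 by 0.53 (1.53e-06) and PSMB10 by 0.31 (0.000327). PSME1 had a log2 change of -0.35 ± 0.041 and PSME2 of -0.36 ± 0.034. All 5 were also called lower once the length trend was removed. Of the 7 somatic alpha subunits 5 and of the 7 constitutive beta subunits 4 were lower, and of the non-ATPase cap 4 were higher and 2 lower. PSMA5 of these alpha and PSMB4 of these beta subunits were still lower with the length trend removed. Quantile scaling gave 10 higher and 14 lower, and removing the length trend 5 higher and 12 lower against 35.1% of all genes, 16.8% higher and 18.3% lower. The calls of PSMA1, PSMA2, PSMA6, PSMB1, PSMB5, PSMC5, PSMD1, PSMD12 and PSMD13 ended in 1 to 4 of the 6 fits that left out 1 library.

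**Figure D3:**
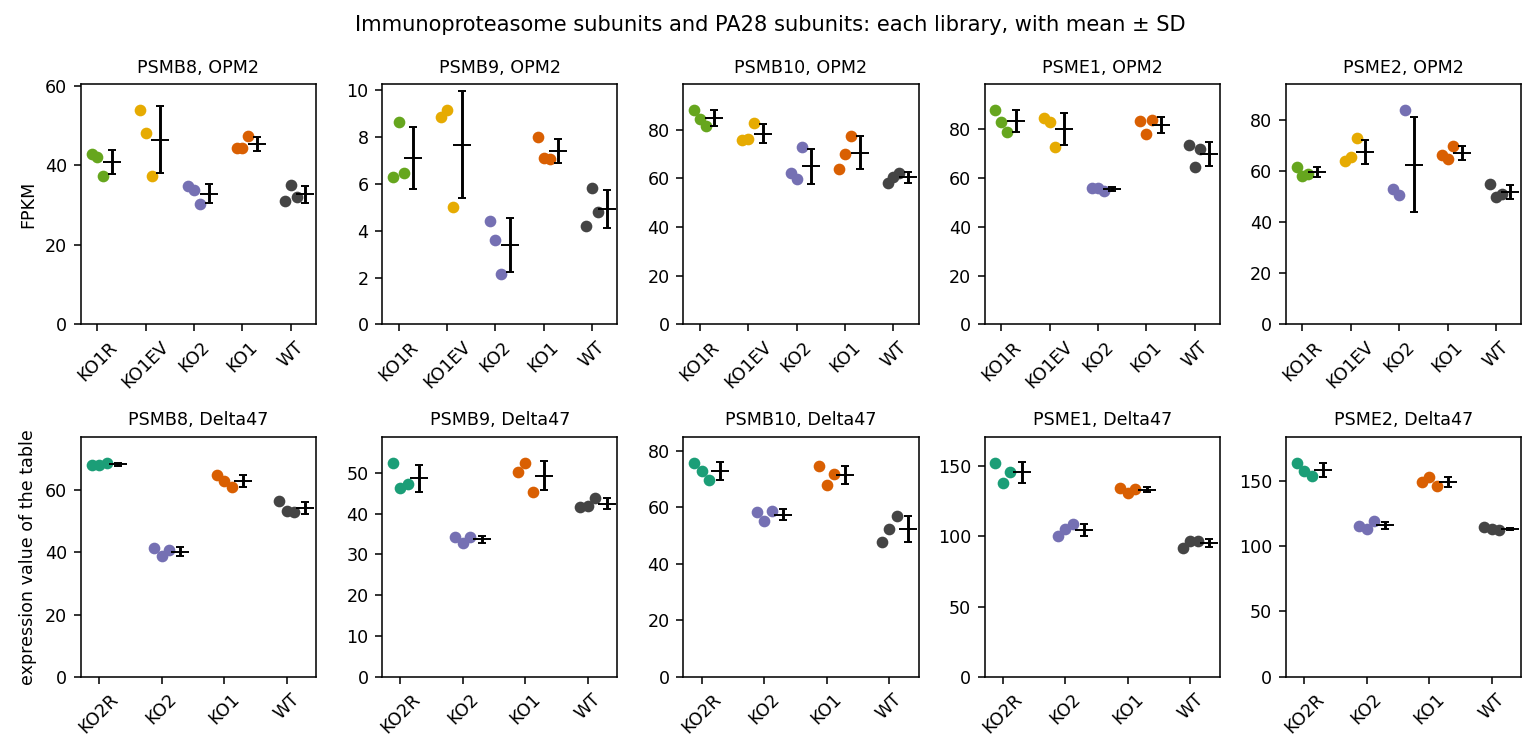
PSMB8, PSMB9, PSMB10, PSME1 and PSME2 in OPM2 (upper row, FPKM) and Delta47 (lower row, the table's expression value), with each library as a point and the mean ± SD of 3 libraries beside it. KO2 lies below KO1 in every library for PSMB8, PSMB9 and PSME1 in both lines and for PSMB10 and PSME2 in Delta47; in OPM2 the PSMB10 libraries of the 2 clones overlap and KO2 replicate 3 is above all KO1 libraries for PSME2.

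The promoters of these 5 genes are printed because all were called lower in KO2 than in KO1 in Delta47. In OPM2 PSMB10 (-0.12) and PSME2 (-0.14) were not called between the clones with all libraries. The windows are 300 bases around the annotated start from RefSeq (GRCh38.p14, a later build than the hg19 of the tables, so no value of the tables is placed on them). PSMB8 is at chr6:32843998-32844297 (minus strand), PSMB9 at chr6:32853942-32854241 (plus strand), PSMB10 at chr16:67936801-67937100 (minus strand), PSME1 at chr14:24135944-24136243 (plus strand) and PSME2 at chr14:24146561-24146860 (minus strand). Capitals mark motif matches on either strand, which are the interferon-stimulated response element core (TTTC, any 2 bases and TTTC, or its reverse complement), the antioxidant response element core TGACNNNGC (GCNNNGTCA) to which NFE2L1 can bind, and the CCAAT box.
PSMB8: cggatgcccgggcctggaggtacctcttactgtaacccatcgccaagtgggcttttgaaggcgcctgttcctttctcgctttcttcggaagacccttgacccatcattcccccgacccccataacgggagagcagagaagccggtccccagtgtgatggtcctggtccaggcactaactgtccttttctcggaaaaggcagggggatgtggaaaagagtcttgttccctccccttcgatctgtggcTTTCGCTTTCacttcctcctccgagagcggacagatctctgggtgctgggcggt
PSMB9: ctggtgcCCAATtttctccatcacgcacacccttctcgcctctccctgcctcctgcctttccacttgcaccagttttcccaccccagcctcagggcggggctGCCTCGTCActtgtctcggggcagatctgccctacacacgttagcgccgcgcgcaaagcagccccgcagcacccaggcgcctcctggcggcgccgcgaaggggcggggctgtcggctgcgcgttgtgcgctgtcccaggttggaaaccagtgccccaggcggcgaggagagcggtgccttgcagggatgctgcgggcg
PSMB10: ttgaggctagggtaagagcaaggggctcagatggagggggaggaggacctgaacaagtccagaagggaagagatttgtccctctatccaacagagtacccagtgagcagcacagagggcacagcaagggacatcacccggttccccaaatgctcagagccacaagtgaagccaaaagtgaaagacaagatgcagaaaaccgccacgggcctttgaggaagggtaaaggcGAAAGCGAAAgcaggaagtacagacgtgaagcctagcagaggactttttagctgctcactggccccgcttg
PSME1: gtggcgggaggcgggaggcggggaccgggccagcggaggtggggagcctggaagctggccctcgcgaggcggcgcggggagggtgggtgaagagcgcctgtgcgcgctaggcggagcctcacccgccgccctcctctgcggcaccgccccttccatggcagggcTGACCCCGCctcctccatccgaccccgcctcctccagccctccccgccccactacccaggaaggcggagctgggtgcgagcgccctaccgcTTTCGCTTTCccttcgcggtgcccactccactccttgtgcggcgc
PSME2: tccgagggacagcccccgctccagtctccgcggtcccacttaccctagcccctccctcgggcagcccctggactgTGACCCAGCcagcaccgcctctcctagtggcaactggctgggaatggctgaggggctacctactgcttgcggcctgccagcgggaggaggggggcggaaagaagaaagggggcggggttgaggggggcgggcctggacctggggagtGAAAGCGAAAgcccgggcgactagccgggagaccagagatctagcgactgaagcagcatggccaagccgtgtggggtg
PSMB8, PSMB10, PSME1 and PSME2 each hold the same 10 letters, TTTCGCTTTC or their reverse complement GAAAGCGAAA, within 30 bases of the start. PSMG4, a core chaperone outside this set, holds GAAAGCGAAA as well, at position -33 from its start. The PSMB9 window lacks these letters. It holds a CCAAT box and an antioxidant response element core, and the windows of PSME1 and PSME2 hold the antioxidant core too. PSMB8 has a second annotated window in which none of the motifs searched was found. RefSeq windows were found for 43 of the 49 members. The interferon-stimulated core, searched for after these sequences had been seen, was in 7 of the 43 members (16.3%), namely PSMA4, PSMB4, PSMB8, PSMB10, PSME1, PSME2 and PSMG4, and in 4.38% of all 27305 genes with a window. A match describes letters in a window, and binding was not measured.

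Around the proteasome, the Delta47 clones differed from WT in the peptide transporter. TAP1 was at 46.7, 44.5 and 41.97 in KO2, 61.6, 65.9 and 60.9 in KO1 and 71.7, 69.7 and 70.7 in WT, a fall of 0.66 on the log2 scale in KO2 (limma, adjusted p = 1.78e-09) and of 0.17 in KO1 (0.00268). Of 5 immunoproteasome partners 2 fell in KO2, TAP1 and the chaperone TAPBP (-0.42), while in KO1 IRF1 (0.33) rose and TAP1 fell. NFE2L3, a relative of NFE2L1, fell by 0.65 in KO2 and 0.48 in KO1, and the ubiquitin shuttle UBQLN4, a chromosome 1 gene, fell by 0.64 and 0.67. Its relative UBQLN1 fell as well, by 0.27 in KO2 and 0.32 in KO1. Of 9 activation genes 3 rose and 1 fell in KO2 and 2 rose and 5 fell in KO1, of 13 other proteasome parts 3 rose and 2 fell in KO2 and 5 rose and 4 fell in KO1, and of 14 ubiquitin genes 1 rose and 3 fell in KO2 and 2 rose and 5 fell in KO1. Over all genes 28.4% were called higher and 15.2% lower in KO2, and 28.9% and 23.7% in KO1. Of the ubiquitin genes none was higher and 7 were lower in KO2 with the length trend removed, and 2 were higher and 8 lower in KO1. The shares over all genes were then 20.7% higher and 21.4% lower in KO2, and 23.8% and 24.7% in KO1. NFE2L1 rose by 0.23 in KO2 and was not called in KO1 (0.056), POMP rose by 0.21 in KO1 and was not called in KO2 (0.10), and HSF1 fell by 0.24 in KO1 and was not called in KO2 (-0.036). With the trend removed POMP was not called in KO1, and NFE2L1 was called higher there. TXNL1 rose by 0.41 in KO1, and ZFAND2A by 0.35 in KO2 and 0.38 in KO1. Set directly against KO1, KO2 had lower TAP1 (-0.49) and TAPBP (-0.33), with 3 of 5 partners lower and 1 higher. TXNL1 (-0.46) and RPS27A (-0.34) were also lower in KO2, and FAF1 (0.32), NFE2L1 (0.17) and HSF1 (0.21) were higher, while POMP (-0.12) was not called. The call of NFE2L1 ended with the trend removed, where 1 of 9 activation genes was higher and 1 lower. The counts of KO2 against KO1 before the trend was removed were 4 higher and 1 lower of 13 other parts, 4 and 1 of 9 activation genes, and 3 and 3 of 14 ubiquitin genes. Over all genes 24.9% were called higher there and 17.2% lower.

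**Figure D4:**
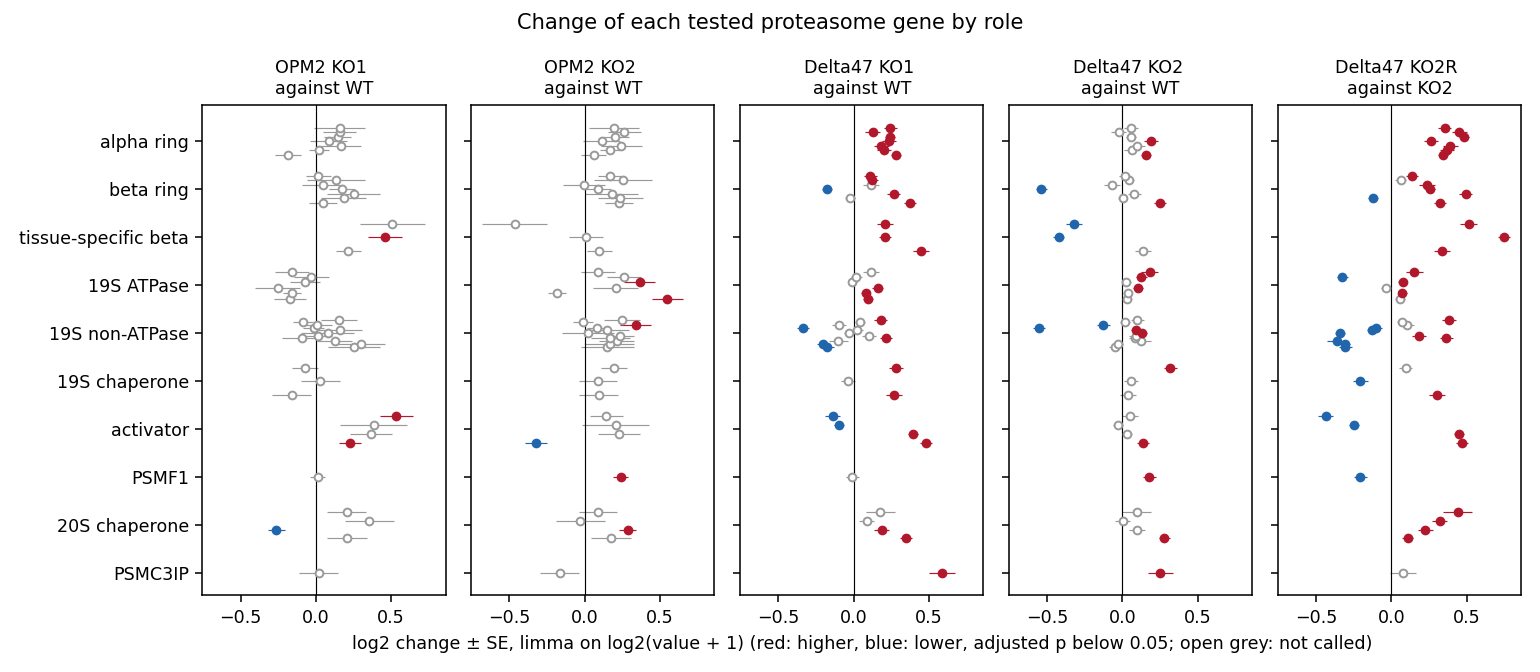
The log2 change of each tested proteasome gene by role, with its standard error, in OPM2 KO1 and KO2 against WT, Delta47 KO1 and KO2 against WT, and Delta47 KO2R against KO2; filled red and blue points were called higher and lower at an adjusted p below 0.05 and open grey points were not called. PSMA8, at 2.41 in Delta47 KO1 on the log2(value + 1) scale, lies outside the axis and is not drawn; the alpha ring lies to the right of 0 in Delta47 KO1 and KO2R, and the activators split in Delta47 KO2R.

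The largest number of proteasome calls came when the FOXM1c vector was put into Delta47 KO2. In KO2R the core, its assembly chaperones, the immunoproteasome and PA28 rose, while large cap subunits and the nuclear activators fell. In all, 40 of 48 members were called, 28 higher and 12 lower, against 62.0% of all genes, 25.2% higher and 36.8% lower, and the median log2 change was 0.14 for members and -0.051 for all genes. The members summed to 6069, 5846 and 5904 in KO2R, 5164, 5246 and 5364 in KO2, 5775, 5698 and 5729 in KO1 and 5397, 5368 and 5552 in WT. All 7 somatic alpha subunits rose, by 0.26 for PSMA4 to 0.48 for PSMA5, and all but PSMA3 and PSMA4 were also called with the length trend removed. PSMA5 was at 58.1, 56.5 and 57.96 in KO2R and 40.5, 41.1 and 41.01 in KO2 (log2 change 0.48 ± 0.033, limma, adjusted p = 5.7e-09). PSMB3 was at 415, 403 and 378 in KO2R and 277, 284 and 286 in KO2, PSMB1 at 292, 276 and 283 and 216, 224 and 241, PSMB4 at 678, 668 and 637 and 541, 542 and 575, and PSMB5 at 59.9, 56.4 and 63.8 and 48.7, 50.6 and 52.7, each without overlap. These 4 beta subunits and PSMB7 rose, by 0.14 to 0.49, and PSMB2 fell by 0.12.

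PSMB8 had the largest log2 change of the 48 tested members. It was at 67.96, 67.96 and 68.8 in KO2R and 41.2, 38.6 and 40.7 in KO2, a log2 change of 0.75 ± 0.039 (limma, adjusted p = 4.31e-10). PSMB9 was at 52.5, 46.3 and 47.2 in KO2R and 34.2, 32.8 and 34.3 in KO2, and PSMB10 at 75.8, 72.9 and 69.5 and 58.4, 55.2 and 58.7. PSME1 was at 153, 138 and 146 in KO2R and 100.1, 105 and 109 in KO2, a log2 change of 0.47 ± 0.041, and PSME2 changed by 0.45 ± 0.034. All 5 genes were also called higher with the length trend removed, by 0.15 for PSMB10 to 0.57 for PSMB8. TAP1, whose gene lies beside PSMB8 and PSMB9, was at 43.1, 43.6 and 43.9 in KO2R and 46.7, 44.5 and 41.97 in KO2 and was not called. The core chaperones PSMG1 to PSMG4 all rose, by 0.11 for PSMG1 to 0.44 for PSMG4. PSMG4 was at 41.1, 40.8 and 29.1 in KO2R and 27.5, 27.2 and 25.4 in KO2, with the third KO2R library nearest to KO2. None of the 4 chaperones was called with the length trend removed.

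In the Delta47 KO2R cap, 6 of 11 non-ATPase subunits fell, the scaffold subunits PSMD1 (-0.30) and PSMD2 (-0.34), PSMD3 (-0.13), PSMD4 (-0.10) and the lid subunits PSMD11 (-0.31) and PSMD12 (-0.36). PSMD4 was at 279, 254 and 276 in KO2R and 279, 296 and 293 in KO2. Within the same lid PSMD8 (0.38), PSMD13 (0.37) and the deubiquitinase PSMD14 (0.18) rose. PSMC5, an ATPase, was at 100.0, 92.8 and 95.5 in KO2R and 117, 122 and 123 in KO2 and fell by 0.33 (limma, adjusted p = 8e-07), while PSMC2, PSMC4 and PSMC6 rose by 0.073 to 0.15. All 9 of the non-ATPase calls and that of PSMC5 remained with the length trend removed. PSME4 was at 33.1, 35.2 and 38.2 in KO2R and 50.4, 46.9 and 47.6 in KO2, a log2 change of -0.44 ± 0.052 and of -0.15 ± 0.035 with the trend removed. PSME3 (-0.25), PSMF1 (-0.20) and the cap chaperone PSMD5 (-0.21) fell, and the chaperone PSMD10 (0.31) rose. PSMA8, PSMB6, PSMC1, PSMC3, PSMD6, PSMD7, PSMD9 and PSMC3IP were the 8 members not called. The calls of PSMB7, PSMC2, PSMC4, PSMC6, PSMD4 and PSMG1 ended in 2 to 5 of the 6 fits that left out 1 library.

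Part of this pattern followed transcript length over the whole table. Across genes, which are not independent replicates, the log2 change in Delta47 KO2R against KO2 had a Spearman rho of -0.54 with transcript length over 10889 genes and of -0.68 over the 48 members. Of 10 equal bins of genes by length, the shortest, with a median length of 876 bases, had a median log2 change of 0.30, and the longest, with 7730 bases, a median of -0.31. The 25 members shorter than 1500 bases had a median of 0.32, against 0.24 for all genes of that length, and the 23 longer members -0.035, against -0.10. Most core genes are short and most of the large cap genes long. With the trend removed 28 members were called, 15 higher and 13 lower, against 56.9% of all genes, 28.5% higher and 28.4% lower, and quantile scaling gave 24 higher and 14 lower. PSMB4, PSMB5 and PSMB1 were then no longer called, with log2 changes of 0.0017, 0.028 and 0.054, and PSMB6 and PSMB7 were called lower. In KO1 against WT the rho was -0.39 over all genes, and removing the trend left 21 members called, 13 higher and 8 lower, against 48.4% of all genes, 23.8% higher and 24.7% lower. Quantile scaling gave 28 calls there, 18 higher and 10 lower. In KO2 against WT the rho was -0.067, and 15 members were called with the trend removed, 6 higher and 9 lower, against 42.2% of all genes, 20.7% higher and 21.4% lower, and 15 with quantile scaling, 10 higher and 5 lower. Whether the trend arose in the cells or in the libraries was not tested.

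**Figure D5:**
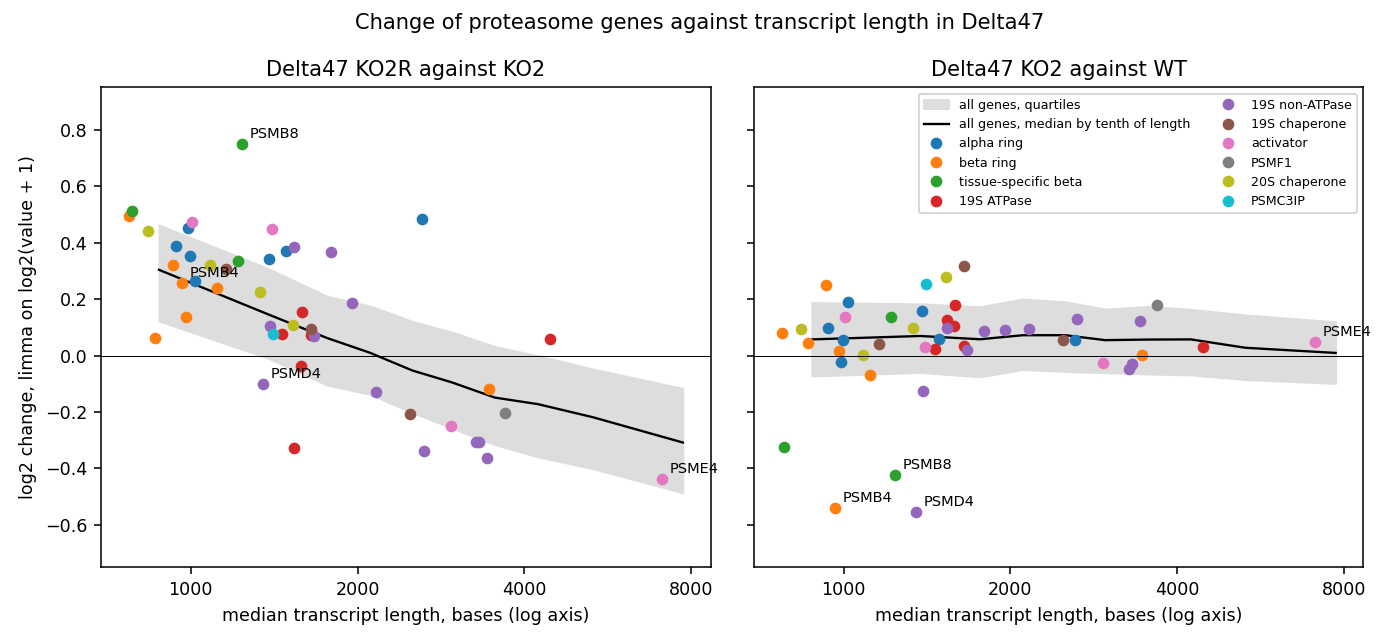
The log2 change of each tested proteasome gene against median transcript length (log axis) in Delta47 KO2R against KO2 (left) and KO2 against WT (right), coloured by role, with the median (line) and quartiles (grey) of all genes in 10 bins of length. On the left the line falls from 0.30 to -0.31 and the members follow it, with PSMB8 above the grey band; on the right the line is flat and PSMB4, PSMD4 and PSMB8 lie below it.

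The genes that supply and steer the proteasome moved with KO2R too, when 25.2% of all genes were called higher and 36.8% lower. Of 9 activation genes 8 fell and none rose, NFE2L1 to 19.4 in KO2R, against 29.98 in KO2 (log2 change -0.61, limma, adjusted p = 7.02e-09), HSF1 by 0.32 and MAFK by 0.60. With the length trend removed 6 of the 9 were lower. POMP rose by 0.36, and of 13 other proteasome parts 4 rose and 7 fell. Of 14 ubiquitin genes 4 rose and 8 fell, with 0.69 for RPS27A, a ubiquitin-ribosomal fusion gene, -0.52 for VCP, which extracts ubiquitinated proteins for the proteasome, -0.42 for the ubiquitin-activating enzyme UBA1 and -0.47 for NPLOC4. Among the 5 immunoproteasome partners 2 fell and none rose. With the length trend removed, 5 ubiquitin genes were higher and 8 lower, 4 other parts higher and 5 lower, and 2 partners lower. Over all genes 28.5% were then called higher and 28.4% lower. RPS27A has a transcript length of 796 bases, against 4774 for NFE2L1, 4370 for VCP and 4415 for NPLOC4.

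The antioxidant response element core was in 15 of the 43 members with a window (34.9%) and in 16.1% of all genes. PSMB3 and PSMD1 are shown as holders that stood high in OPM2 KO2 replicate 3, at 1.85-fold and 1.79-fold. The holders ran from 0.53-fold for PSMB9 to 1.85-fold for PSMB3 there, and PSME3, at 2.13-fold, has a window without the core. A link between the core and these values was not tested. PSMB3 is at chr17:38752491-38752790 (plus strand) and PSMD1 at chr2:231056617-231056916 (plus strand), with matches in capitals.
PSMB3: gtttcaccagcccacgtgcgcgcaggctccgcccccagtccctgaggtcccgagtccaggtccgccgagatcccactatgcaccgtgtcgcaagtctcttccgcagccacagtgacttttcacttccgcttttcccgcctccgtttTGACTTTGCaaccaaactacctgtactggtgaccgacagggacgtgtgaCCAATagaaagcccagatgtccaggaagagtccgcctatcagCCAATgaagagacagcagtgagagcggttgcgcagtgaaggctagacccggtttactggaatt
PSMD1: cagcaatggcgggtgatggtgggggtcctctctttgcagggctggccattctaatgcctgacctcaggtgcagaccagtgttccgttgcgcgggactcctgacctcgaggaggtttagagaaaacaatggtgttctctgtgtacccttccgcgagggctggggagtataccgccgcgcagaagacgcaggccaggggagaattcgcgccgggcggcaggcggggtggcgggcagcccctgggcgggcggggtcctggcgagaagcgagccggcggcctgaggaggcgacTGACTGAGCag
PSMB3 also holds the CCAAT box at 2 places. The CCAAT box was in 21 of 43 members (48.8%) and 39.7% of all genes. The forkhead core TAAACA, searched on both strands, was in 4 members (9.30%), PSMB2, PSMB5, PSMC5 and PSMD5, and in 14.7% of all genes. The heat shock element, 3 units of GAA in alternating orientation with any 2 bases between each, was in no member and in 0.608% of all genes.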

How the data were processed

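Poly-A RNA of 2 human myeloma cell lines had been sequenced as 100 base paired ends on a DNBseq instrument, per the labels' protocols, and mapped to hg19, per the submitters' processing notes. Which aligner and which counter were used is not given in the sources used here. The OPM2 table holds FPKM values, per the file headers. The authors deposited the Delta47 table with no unit in its header, and it is treated as a normalized signal. Depth is unknown in both: low values of 75 sparse genes (OPM2) and 59 (Delta47) gave the worth of 1 read within -0.041 to 0.058 and -0.030 to 0.014 log2 between libraries, and no whole reads were recovered. The tables were normalized separately, so tests stay within a line.

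Of 30 samples 27 were used. The Delta47 empty-vector group was not analysed here, and 3 value columns that match no sample were not used. Delta47 columns named for a rescued knockout without a clone number were read as KO2R.

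Genes with a value of at least 1 in at least 3 libraries were tested on log2(value + 1), a scale that understates the change of low genes, with limma 3.58.1 (R 4.3.3), all groups of a line in 1 fit, trended variance and Benjamini-Hochberg adjustment over all genes, with an adjusted p below 0.05 taken as called. Both values of a gene and its antisense partner, or of near-identical copies (such as HSPA1A and HSPA1B), are uncertain, as the counting's use of strand is not given. The procedure was tested on simulated data with independent noise. Its OPM2 spread left out KO2 replicate 3 and KO1EV replicate 3, so it does not cover the OPM2 fit with all libraries. Neighbours are the 10 nearest tested genes on each side, members left out, and gene order, names and promoter windows come from RefSeq (GRCh38.p14). Transcript lengths, known for 16299 OPM2 and 16704 Delta47 genes, came from the GENCODE annotation, as the median over transcripts of each gene. The length trend was removed per library by lowess with a span of 0.3. Alternatives were a pseudocount of 0.1, no filter, quantile scaling, only the groups compared, a replicate block, array weights, the length trend removed, and libraries left out. Tables were handled with Python 3.11.15 and pandas 2.3.3, and plots drawn with matplotlib 3.10.9.

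Members were picked by symbol and not by value, but members and pathway lists were chosen with earlier results of these data known. A few genes of the pathway and marker lists are not reported here, and the lists' counts leave them out. The rule named from the lists the called genes, up to 6 per comparison by adjusted p, and always POMP, NFE2L1 and HSF1, and gave in full the 10 members with the largest range of group means in a line, PSMB1, PSMB4, PSMB5 and the immunoproteasome subunits. TAP1, TAP2, IRF1, UFD1, SYVN1, NGLY1, NFE2L2 and NFE2L3, where they complete a count, PSME2 and the promoters shown were chosen after their values were seen. Replicate numbers come from the titles. Same-numbered samples deviated together in OPM2 KO1 against WT (correlations of 0.41, 0.15 and 0.21), where the block left the members called at 4. They did so in OPM2 KO1R against KO1EV as well (0.18, 0.086 and 0.26), where the block left the members called at 0. In each of the other comparisons the correlations were not all above 0.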

Additional observations from a re-analysis of the deposited data

Results flagged for a closer look

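Among the proteasome genes, 4 were called in opposite directions in KO2 and KO1 of the same line, both against the shared WT libraries. The difference between the clones was tested directly and was called as well. In OPM2, PSME1 had a log2 change of -0.32 in KO2 and 0.22 in KO1, a difference of -0.55 for KO2 minus KO1 (limma, adjusted p = 0.000105). PSMG2 had 0.28 in KO2 and -0.26 in KO1, a difference of 0.55 (limma, adjusted p = 1.03e-05). In Delta47, PSMB8 had -0.42 in KO2 and 0.21 in KO1, a difference of -0.63 (limma, adjusted p = 4.33e-09). PSMB9 had -0.32 in KO2 and 0.21 in KO1, a difference of -0.53 (limma, adjusted p = 1.53e-06). All 4 differences between clones were also called with the length trend removed, and those in OPM2 without KO2 replicate 3 and KO1EV replicate 3. The changes against WT held less well with the trend removed, where the KO1 changes of PSME1 in OPM2 (limma, adjusted p = 0.0921) and of PSMB8 (0.268) and PSMB9 (0.679) in Delta47 were no longer called. Groups of 3 libraries were not tested for single outlying values.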

How the results depend on the processing

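The number of OPM2 members called depended most on how the 2 libraries that stood apart were treated. With array weights it was 30 in KO1 against WT, 19 in KO2 against WT, 32 in KO2 against KO1, 14 in KO1EV against KO1 and 11 in KO1R against KO1EV. When each fit held just the compared groups it was 27, 0, 5, 3 and 0, without the 2 libraries 27, 13, 31, 13 and 6, and with the length trend removed as well, an alternative chosen after seeing the data, 25, 13, 33, 14 and 6. With the length trend removed and all libraries it was 0 in KO1EV against KO1, and in Delta47 it was 21 in KO1 against WT and 17 in KO2 against KO1. The other counts moved by less than 1.5 times with these settings, a pseudocount of 0.1, no filter or quantile scaling.

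Leaving out 1 library at a time gave 3 to 3 members in OPM2 KO1 against WT, 4 to 9 in KO2 against WT, 8 to 26 in KO2 against KO1, 0 to 1 in KO1EV against KO1 and 0 to 0 in KO1R against KO1EV, the highest 2 without KO2 replicate 3. In Delta47 it gave 26 to 32 in KO1 against WT, 14 to 18 in KO2 against WT, 20 to 25 in KO2 against KO1 and 36 to 38 in KO2R against KO2.

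With the replicate block, the paired fit called 4, 6, 12, 1 and 0 members in the OPM2 comparisons in that order and 35, 18, 26 and 39 in Delta47. It ended the calls of PSMC2 and PSMC4 in Delta47 KO2R against KO2 (limma, adjusted p = 0.0502 and 0.052) and no other named call.

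Called log2 changes that changed sign were, in Delta47 KO1 against WT with the length trend removed, PSMA6 at -0.046, PSMC2 at -0.022 (-0.031 with quantile scaling), PSMB6 at -0.055, PSMB7 at -0.062 and PSME4 at 0.012. In Delta47 KO2R against KO2 they were PSMB2 at 0.016, PSMC2 at -0.0053, PSMC4 at -0.044 and PSMB7 at -0.11 with the trend removed, and PSMB4 at -0.019, PSMC2 at -0.041 and PSMC4 at -0.020 with quantile scaling. PSMB7 alone was called on the other side (limma, adjusted p = 0.00821). The cause was not tested. Unknown depth limits the precision of the least abundant members.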
